A study of Homo sapiens with 16 samples.

Results

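The 38 genes described here are the genes of the amino acid stress response and of amino acid synthesis, transport and tRNA charging, taken by name from a count table of 20114 genes. All 38 were in the table and all passed the filter on low counts. By role they are 10 regulators, 8 transporters, 7 enzymes of serine and one-carbon metabolism, 3 enzymes of asparagine synthesis and transsulfuration, 3 secreted or surface proteins and 7 tRNA synthetases. When an amino acid runs short, uncharged tRNA activates the kinase GCN2, which phosphorylates the translation factor eIF2. Most protein synthesis then slows, while the mRNA of the transcription factor ATF4 is translated better. ATF4 pairs with C/EBP proteins on C/EBP-ATF response elements and raises genes that import amino acids, make serine, asparagine and cysteine, and charge tRNAs, as well as CHOP (DDIT3) and TRIB3, which limit the response. In breast cancer the pathway is best known for subsets of tumours with high serine synthesis and for the import of cystine, the precursor of glutathione.

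RNA was sequenced from Hs578, a breast cancer line, and from TT642, in which a short hairpin RNA (shRNA) against PRRX1, a homeobox transcription factor of mesenchymal cells, can be switched on with doxycycline. Neither the treatment time nor the hairpin sequences are given in the sources used here. Each line was sequenced as 3 derived hairpin lines with 3 µg/ml doxycycline (induced), the same 3 lines without it (uninduced), and parental cells that carry no hairpin, in 1 library with and 1 without doxycycline, which makes 16 libraries. Doxycycline is therefore shared by the induced lines and the treated parental cells, and each hairpin number stands for 1 derived line. The source label of TT642 names rhabdoid tumour cells, while the design of the series counts it among triple-negative breast cancer lines, and SMARCB1, a gene often lost in rhabdoid tumours, was at 28.8 to 41.6 CPM in TT642 and 87.7 to 125 CPM in Hs578. Whether libraries stem from independently grown cultures is not in the labels, and p-values describe the spread among these libraries, which may be technical.

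Total counts were 13461527 to 24672906 per library. PRRX1 itself was at 12.7%, 32.1% and 19.5% of its uninduced level in the induced Hs578 lines, at 21.8%, 13% and 39.4% in the induced TT642 lines, and at 103% in the treated parental cells of both. Its change passed edgeR's test with Benjamini-Hochberg adjustment in Hs578 (log2 fold change -2.28, SE 0.37, adjusted p = 0.00223) but not in TT642 (log2 fold change -2.03, SE 0.36, adjusted p = 0.166). The epithelial markers EPCAM, CDH1 and KRT19 were below 1 CPM in all libraries of both lines, whereas KRT18 was at 185 to 401 CPM in Hs578. Markers of blood, endothelium and muscle reached at most 5.20 CPM. Mitochondrial transcripts took 3.18% to 5.44% of counts in the induced Hs578 lines and 2.16% to 2.79% in the uninduced ones, and 4.16% with against 2.73% without doxycycline in parental Hs578 cells. They moved with doxycycline in that line, and their part in the results below was not tested. The uninduced Hs578 library of hairpin 2 stood apart for these genes: it was the highest of the 3 uninduced libraries for 33 of the 38, and that of hairpin 1 was the lowest for 34. Neither count was made over all genes.

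Most of the 38 genes fell in the induced Hs578 hairpin lines, and none rose. Doxycycline and the hairpin go together in this comparison. With the parental effect of doxycycline taken away, 0 of the 38 were called, where 0.406% of all genes were, as described below. Of the 38, 21 fell and 0 rose at an adjusted p under 0.05 by edgeR's quasi-likelihood test with Benjamini-Hochberg adjustment over all 14035 genes tested, against 14.1% of all genes that fell and 29.3% that changed in either direction. The median log2 fold change was -0.40 over the 38 genes and 0 over all genes, and the 38 ranged from -2.08 to 0.17. Together the 38 genes took 0.675% to 0.704% of the counts in induced lines and 0.839% to 1.15% in uninduced ones. The fallen genes were 5 of 10 regulators, 6 of 8 transporters, 3 of 7 serine and one-carbon enzymes, 2 of 3 asparagine and transsulfuration enzymes, 1 of 3 secreted or surface proteins and 4 of 7 tRNA synthetases. Of these cultures only bulk RNA was measured, so fewer cells of a kind and less RNA per cell cannot be told apart. Induced and uninduced Hs578 libraries did not overlap for 19 of the 38, all lower when induced, as was the case for 21.9% of all genes.

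**Figure D1:**
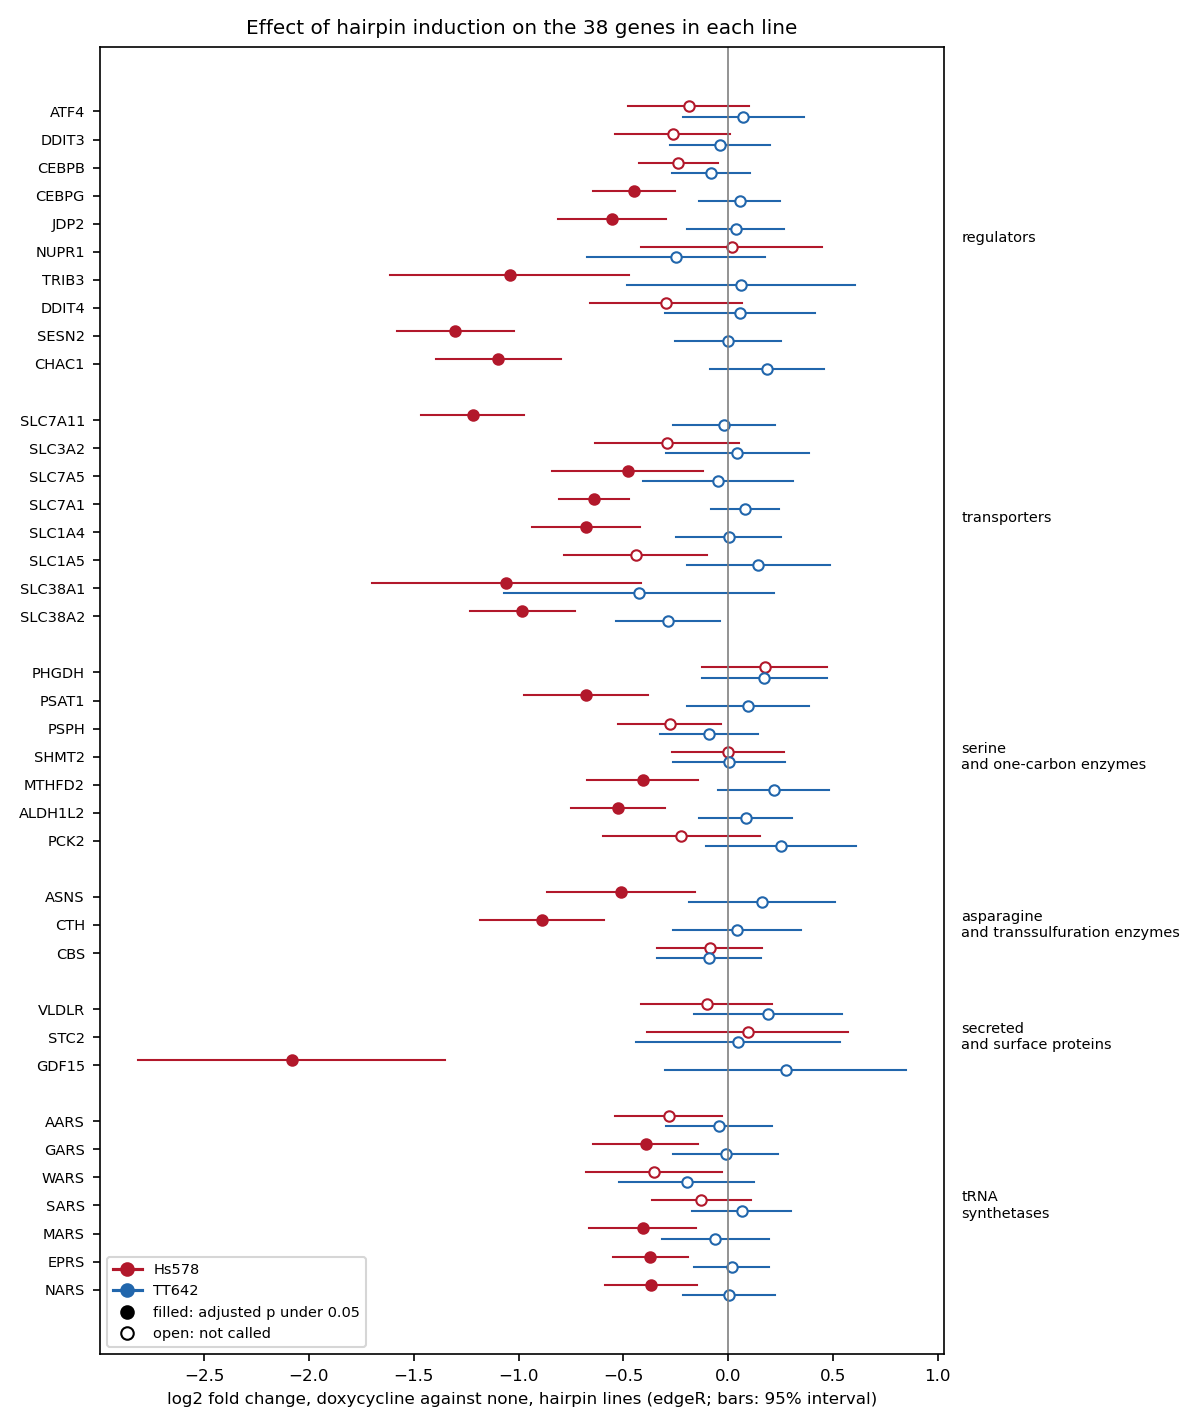
Log2 fold change (x axis) of each of the 38 genes (rows, grouped by role) in induced against uninduced hairpin lines, with 95% intervals; red points are Hs578, blue points TT642, filled where the adjusted p was under 0.05. The Hs578 points run from -2.08 (GDF15) to 0.17 (PHGDH) with 21 filled, and none of the TT642 points is filled.

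The fall in Hs578 was stable for 9 genes and less so for the other 12. SESN2, CHAC1, SLC7A11, SLC7A1, SLC1A4, SLC38A2, ALDH1L2, CTH and GDF15 were called lower in all 24 alternative analyses. The share of all genes called in all 24 was not computed. The number of called genes was 9 when hairpin 3 was left out of both lines, where 6.02% of all genes were called, and 15 when only the uninduced library of hairpin 2 was left out, 14 of them lower and 1, PHGDH, higher, where 25.1% of all genes were called.

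The core of the C/EBP-ATF response element, TGATGNAA, was searched on both strands in the 250 bases before each RefSeq gene start, in the GRCh38.p14 build. Of the 38 genes, 33 matched a promoter entry, and NUPR1, SLC7A11, PSPH, SHMT2 and ALDH1L2 did not. The motif was in 7 of the 33 (21.2%): CEBPG, JDP2, CHAC1, SLC1A5, ASNS, AARS and GARS. Over all genes with an entry counting any listed start, the share was 3.89% (1061 of 27305), and over all windows singly it was 3.14% (1104 of 35116). Among the genes that fell in Hs578 it was 5 of 19 (26.3%), and among the others 2 of 14 (14.3%). A match describes the letters and is no measurement of binding. The 38 genes were listed by name around the ATF4 response, so their share is not independent of this motif. The split between fallen and other genes was not tested. The 4 stretches below are from genes that fell, 1 from each role that holds the motif among such genes and then the gene with the next smallest adjusted p. They are shown because the motif is where ATF4 is known to bind, and the motif core is in capitals. The core is written in the sense direction in ASNS and CEBPG and on the opposite strand in CHAC1 and GARS. It lies at -68 to -61 in ASNS, -42 to -35 in CEBPG, -209 to -202 in CHAC1 and -33 to -26 in GARS, counted from a RefSeq start, before which positions are negative. In CEBPG and GARS this is the second of 2 listed starts, in ASNS the first of 2, and CHAC1 has 1. The second start of CEBPG and of GARS lies downstream of the first, so these stretches may lie inside the gene. All are RefSeq sequence, 5′ to 3′.
ASNS, chr7:97872443-97872502, minus strand: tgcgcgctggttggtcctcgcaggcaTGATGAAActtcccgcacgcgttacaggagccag
CEBPG, chr19:33374060-33374089, plus strand: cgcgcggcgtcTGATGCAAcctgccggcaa
CHAC1, chr15:40953236-40953295, plus strand: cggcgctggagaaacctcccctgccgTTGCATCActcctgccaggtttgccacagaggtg
GARS, chr7:30594834-30594863, plus strand: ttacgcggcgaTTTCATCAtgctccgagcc

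Among the regulators, SESN2, CHAC1, CEBPG, JDP2 and TRIB3 fell, while the transcripts of ATF4 and CHOP did not pass the test. ATF4, whose product is controlled mainly at translation, had 284, 404 and 378 CPM in the induced Hs578 lines of hairpins 1, 2 and 3, against 325, 466 and 424 CPM in the same lines without doxycycline. In each of the 3 lines the induced library was slightly lower, but the groups overlapped and the change did not pass the test (log2 fold change -0.19, SE 0.14, adjusted p = 0.322, edgeR). Parental Hs578 cells had 381 CPM with and 372 CPM without doxycycline. DDIT3, which encodes the pro-apoptotic factor CHOP, was a low transcript with 10.5, 12.04 and 11.7 CPM in the induced Hs578 lines of hairpins 1, 2 and 3, against 12.4, 12.8 and 15.8 CPM in the same lines without doxycycline. Its 2 groups did not overlap, yet the difference missed the threshold (log2 fold change -0.27, SE 0.13, adjusted p = 0.132, edgeR). In parental Hs578 cells DDIT3 had 24.5 CPM with and 14.9 CPM without doxycycline, so the treated parental library was the highest of all 8 Hs578 libraries. Of the DDIT3 exon bases, 27.2% overlap MARS on the opposite strand in the GENCODE annotation, and the use of strand in counting is not given.

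SESN2, which encodes sestrin 2, a leucine-sensing inhibitor of mTORC1, showed a clear separation of the groups. It had 17.1, 22.4 and 19.1 CPM in the induced Hs578 lines of hairpins 1, 2 and 3, against 39.5, 56.7 and 47.8 CPM in the same lines without doxycycline, and parental cells had 34.5 CPM with and 49.9 CPM without doxycycline. All 3 induced libraries lay below all others of the line, treated parental cells included (log2 fold change -1.30, SE 0.13, adjusted p = 0.000102, edgeR). CHAC1, an ATF4 target that degrades glutathione, had 16.7, 24.2 and 23.5 CPM in the induced Hs578 lines of hairpins 1, 2 and 3, against 38.3, 46.7 and 52.5 CPM in the same lines without doxycycline. Parental cells had 28.9 CPM with and 46.2 CPM without doxycycline, between both hairpin groups when treated (log2 fold change -1.10, SE 0.14, adjusted p = 0.00032, edgeR). CEBPG, a C/EBP partner of ATF4 whose promoter stretch is printed above, had 74.5, 78.02 and 73.9 CPM in the induced Hs578 lines of hairpins 1, 2 and 3, against 91.6, 113 and 104 CPM in the same lines without doxycycline (log2 fold change -0.45, SE 0.09, adjusted p = 0.00328, edgeR). Parental CEBPG was 114 CPM with and 109.7 CPM without doxycycline, above all induced lines. JDP2, a repressor that binds with ATF and C/EBP factors, had 16.9, 21.2 and 17.4 CPM in the induced Hs578 lines of hairpins 1, 2 and 3, against 22.1, 30.2 and 28.9 CPM in the same lines without doxycycline (log2 fold change -0.55, SE 0.12, adjusted p = 0.00457, edgeR). Parental cells had 24.3 CPM with and 26.7 CPM without doxycycline for JDP2. For JDP2 no library of either hairpin group crossed into the other, as for SESN2, CHAC1 and CEBPG. TRIB3, a pseudokinase that dampens ATF4, had 43.4, 51.96 and 39.6 CPM in the induced Hs578 lines of hairpins 1, 2 and 3, against 55.4, 131 and 91.3 CPM in the same lines without doxycycline (log2 fold change -1.04, SE 0.26, adjusted p = 0.013, edgeR). Its uninduced libraries ranged widely, and the highest of them was that of hairpin 2. TRIB3 also missed the threshold without the induced library of hairpin 3 (adjusted p = 0.0623). Without hairpin 3 in both lines, the adjusted p was 0.0722 for CEBPG, 0.105 for JDP2 and 0.189 for TRIB3. CEBPB, DDIT4, an mTORC1 inhibitor, and NUPR1, a stress-induced chromatin protein, did not pass (log2 fold changes -0.24, -0.30 and 0.02). With the derived line as a block, CEBPB passed (adjusted p = 0.0201, edgeR). CEBPB, itself a C/EBP partner of ATF4, shares 11.8% of its exon bases with an antisense transcript, and DDIT4 41.2%.

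Transporters held the largest share of fallen genes. SLC7A11, the cystine-glutamate exchanger subunit of system xc-, had 220, 170.1 and 165 CPM in the induced Hs578 lines of hairpins 1, 2 and 3, against 438, 440.2 and 414 CPM in the same lines without doxycycline (log2 fold change -1.22, SE 0.11, adjusted p = 8.51e-05, edgeR). The SLC7A11 groups were far apart. An antisense transcript shares 8.97% of its exon bases. Parental Hs578 cells, with no hairpin, showed a still larger contrast for SLC7A11, with 165 CPM with and 577 CPM without doxycycline. SLC3A2, the heavy chain that carries SLC7A11 and SLC7A5 to the membrane, had 250, 243 and 269.5 CPM in the induced Hs578 lines of hairpins 1, 2 and 3, against 218, 409.9 and 305 CPM in the same lines without doxycycline. The groups of SLC3A2 overlapped, hairpin 1 being higher and hairpin 2 lower when induced, and the change did not pass (log2 fold change -0.29, SE 0.16, adjusted p = 0.19, edgeR). SLC7A5, the large neutral amino acid exchanger LAT1, had 647, 561 and 633 CPM in the induced Hs578 lines of hairpins 1, 2 and 3, against 616, 1145 and 807 CPM in the same lines without doxycycline. It passed narrowly (log2 fold change -0.48, SE 0.17, adjusted p = 0.0459, edgeR), but its value was -0.21 with an adjusted p of 0.239 without the uninduced library of hairpin 2, and it was called in 10 of the 24 alternatives. With the derived line as a block SLC7A5 missed the threshold (adjusted p = 0.0806, edgeR).

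SLC7A1, the cationic amino acid transporter CAT-1 for arginine and lysine, had 128, 121 and 125 CPM in the induced Hs578 lines of hairpins 1, 2 and 3, against 179.7, 209 and 194 CPM in the same lines without doxycycline (log2 fold change -0.64, SE 0.08, adjusted p = 0.00023, edgeR). Its induced libraries lay within a few CPM of each other and below all others, and parental cells had 147 CPM with and 224 CPM without doxycycline. SLC1A4, the transporter ASCT1 for serine, alanine and cysteine, had 72.8, 75.6 and 80.6 CPM in the induced Hs578 lines of hairpins 1, 2 and 3, against 98.02, 146 and 123 CPM in the same lines without doxycycline (log2 fold change -0.68, SE 0.12, adjusted p = 0.00157, edgeR). Parental SLC1A4 was 104 CPM with and 119 CPM without doxycycline, within the range of the uninduced lines. SLC38A2, the system A transporter SNAT2, had 642, 635 and 537 CPM in the induced Hs578 lines of hairpins 1, 2 and 3, against 1334, 1083 and 1163 CPM in the same lines without doxycycline (log2 fold change -0.98, SE 0.12, adjusted p = 0.000207, edgeR). Each induced library held less than any other Hs578 library, and parental cells had 1035 CPM with and 1455 CPM without doxycycline. SLC38A1, the glutamine transporter SNAT1, had 366, 295 and 262 CPM in the induced Hs578 lines of hairpins 1, 2 and 3, against 617, 696 and 609 CPM in the same lines without doxycycline (log2 fold change -1.06, SE 0.29, adjusted p = 0.021, edgeR). Parental SLC38A1 showed a gap of like size, with 384 CPM with and 822 CPM without doxycycline. The SLC38A1 call was lost in 6 of the 24 alternatives, with adjusted p between 0.0556 and 0.209: without hairpin 1 or hairpin 3, and without the uninduced library of hairpin 1 or 2 or the induced library of hairpin 2 or 3. SLC1A5, the glutamine transporter ASCT2, missed the threshold (log2 fold change -0.44, SE 0.16, adjusted p = 0.0507, edgeR) but passed with the derived line as a block (adjusted p = 0.00333), and 23.4% of its exon bases overlap an antisense transcript.

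The serine pathway did not move as 1 block in Hs578. PHGDH, the first enzyme of serine synthesis, was higher when induced in all 3 lines but did not pass (log2 fold change 0.17, SE 0.14, adjusted p = 0.375, edgeR), with 341, 402 and 339.9 CPM in the induced Hs578 lines of hairpins 1, 2 and 3, against 246, 397 and 316 CPM in the same lines without doxycycline. PSAT1, the second enzyme, fell, with 173, 168 and 160.4 CPM in the induced Hs578 lines of hairpins 1, 2 and 3, against 197, 334 and 271 CPM in the same lines without doxycycline (log2 fold change -0.68, SE 0.14, adjusted p = 0.00328, edgeR). PSPH, the third, did not pass (log2 fold change -0.28, SE 0.12, adjusted p = 0.0827). Parental cells had 224 CPM with and 281 CPM without doxycycline for PSAT1 and 469 CPM with and 283 CPM without doxycycline for PHGDH, so PHGDH was highest of all 8 Hs578 libraries in the treated parental one. Of the mitochondrial one-carbon enzymes, ALDH1L2, a formyl-tetrahydrofolate dehydrogenase, had 87.2, 94.1 and 85.1 CPM in the induced Hs578 lines of hairpins 1, 2 and 3, against 119.8, 146 and 118 CPM in the same lines without doxycycline (log2 fold change -0.53, SE 0.10, adjusted p = 0.00286, edgeR). Parental ALDH1L2, at 144 CPM with and 138 CPM without doxycycline, lay well above the induced lines. MTHFD2, a methylene-tetrahydrofolate dehydrogenase, fell with overlapping groups (log2 fold change -0.41, SE 0.12, adjusted p = 0.0242, edgeR), and 27.2% of its exon bases overlap SLC4A5. Its call was lost in 5 alternatives: without hairpin 2 (adjusted p = 0.203) or 3 (0.135), and without the uninduced library of hairpin 2 (0.115) or 3 (0.0741) or the induced library of hairpin 2 (0.0844). Without hairpin 3 the adjusted p was 0.0774 for PSAT1. SHMT2, serine hydroxymethyltransferase, and PCK2, the mitochondrial phosphoenolpyruvate carboxykinase, did not pass (log2 fold changes -0.00 and -0.22).

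ASNS, asparagine synthetase and the best known target of the response, had 149, 171 and 151 CPM in the induced Hs578 lines of hairpins 1, 2 and 3, against 156, 290.1 and 226 CPM in the same lines without doxycycline. The groups overlapped, uninduced hairpin 1 being near the level of the induced lines, and the change passed the test with little room (log2 fold change -0.51, SE 0.16, adjusted p = 0.0322, edgeR). Without the uninduced library of hairpin 2 the ASNS value was -0.28 with an adjusted p of 0.148, and the call was lost in 9 of the 24 alternatives. Among them were those without hairpin 2 (adjusted p = 0.123) or hairpin 3 (0.243), and without the uninduced library of hairpin 3 (0.0725) or the induced library of hairpin 1 (0.0879), 2 (0.0528) or 3 (0.105). Parental ASNS stood the other way round, at 269 CPM with and 213 CPM without doxycycline. A processed transcript shares 44.6% of the ASNS exon bases on the same strand in the GENCODE annotation. CTH, which makes cysteine from cystathionine, was low but well separated, with 8.70, 9.73 and 8.99 CPM in the induced Hs578 lines of hairpins 1, 2 and 3, against 14.7, 18.7 and 17.3 CPM in the same lines without doxycycline (log2 fold change -0.89, SE 0.14, adjusted p = 0.000838, edgeR). Parental cells had 14.9 CPM with and 17.6 CPM without doxycycline for CTH, within the uninduced range. CBS, the enzyme before CTH in transsulfuration, did not pass (log2 fold change -0.09, SE 0.12, adjusted p = 0.618, edgeR).

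GDF15, a stress-induced secreted cytokine, had the largest fold of the 38, a log2 fold change of -2.08. It had 3.94, 7.26 and 6.03 CPM in the induced Hs578 lines of hairpins 1, 2 and 3, against 16.9, 37.2 and 18.5 CPM in the same lines without doxycycline, and parental cells had 12.5 CPM with and 21.8 CPM without doxycycline (SE 0.33, adjusted p = 0.00189, edgeR). Every induced line lay below every other Hs578 library, and the uninduced library of hairpin 2 was far above the rest. Without that library the log2 fold change was -1.63, with an adjusted p of 0.000881. VLDLR, the very low density lipoprotein receptor, and STC2, the secreted stanniocalcin 2, did not pass (log2 fold changes -0.10 and 0.09).

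The 7 tRNA synthetases charge alanine (AARS), glycine (GARS), tryptophan (WARS), serine (SARS), methionine (MARS), glutamate and proline (EPRS) and asparagine (NARS) onto their tRNAs. All 7 had negative values in Hs578, from -0.41 for MARS to -0.13 for SARS, and the 4 that fell were EPRS, NARS, MARS and GARS. EPRS had 284, 307 and 313 CPM in the induced Hs578 lines of hairpins 1, 2 and 3, against 359.8, 419 and 390 CPM in the same lines without doxycycline (log2 fold change -0.37, SE 0.08, adjusted p = 0.00576, edgeR). For EPRS no induced library reached an uninduced one, although the change was small, and without hairpin 3 its adjusted p was 0.0772. NARS (log2 fold change -0.37, SE 0.10, adjusted p = 0.0163), MARS (log2 fold change -0.41, SE 0.12, adjusted p = 0.0204) and GARS (log2 fold change -0.39, SE 0.12, adjusted p = 0.0218) also fell by edgeR's test. Without the uninduced library of hairpin 2 the adjusted p was 0.0738 for NARS, 0.0969 for MARS and 0.105 for GARS. Of the 24 alternatives, the call was lost in 4 for NARS, 6 for MARS and 5 for GARS. For each of these genes, those without hairpin 2 and without hairpin 3 were among them. With the derived line as a block AARS (adjusted p = 0.0171) and WARS (0.0462) passed as well by edgeR. On the authors' FPKM, tested as log2(FPKM + 1) with limma, the value of MARS was -0.02 (adjusted p = 0.945), so the count and FPKM tables part for this gene.

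**Figure D2:**
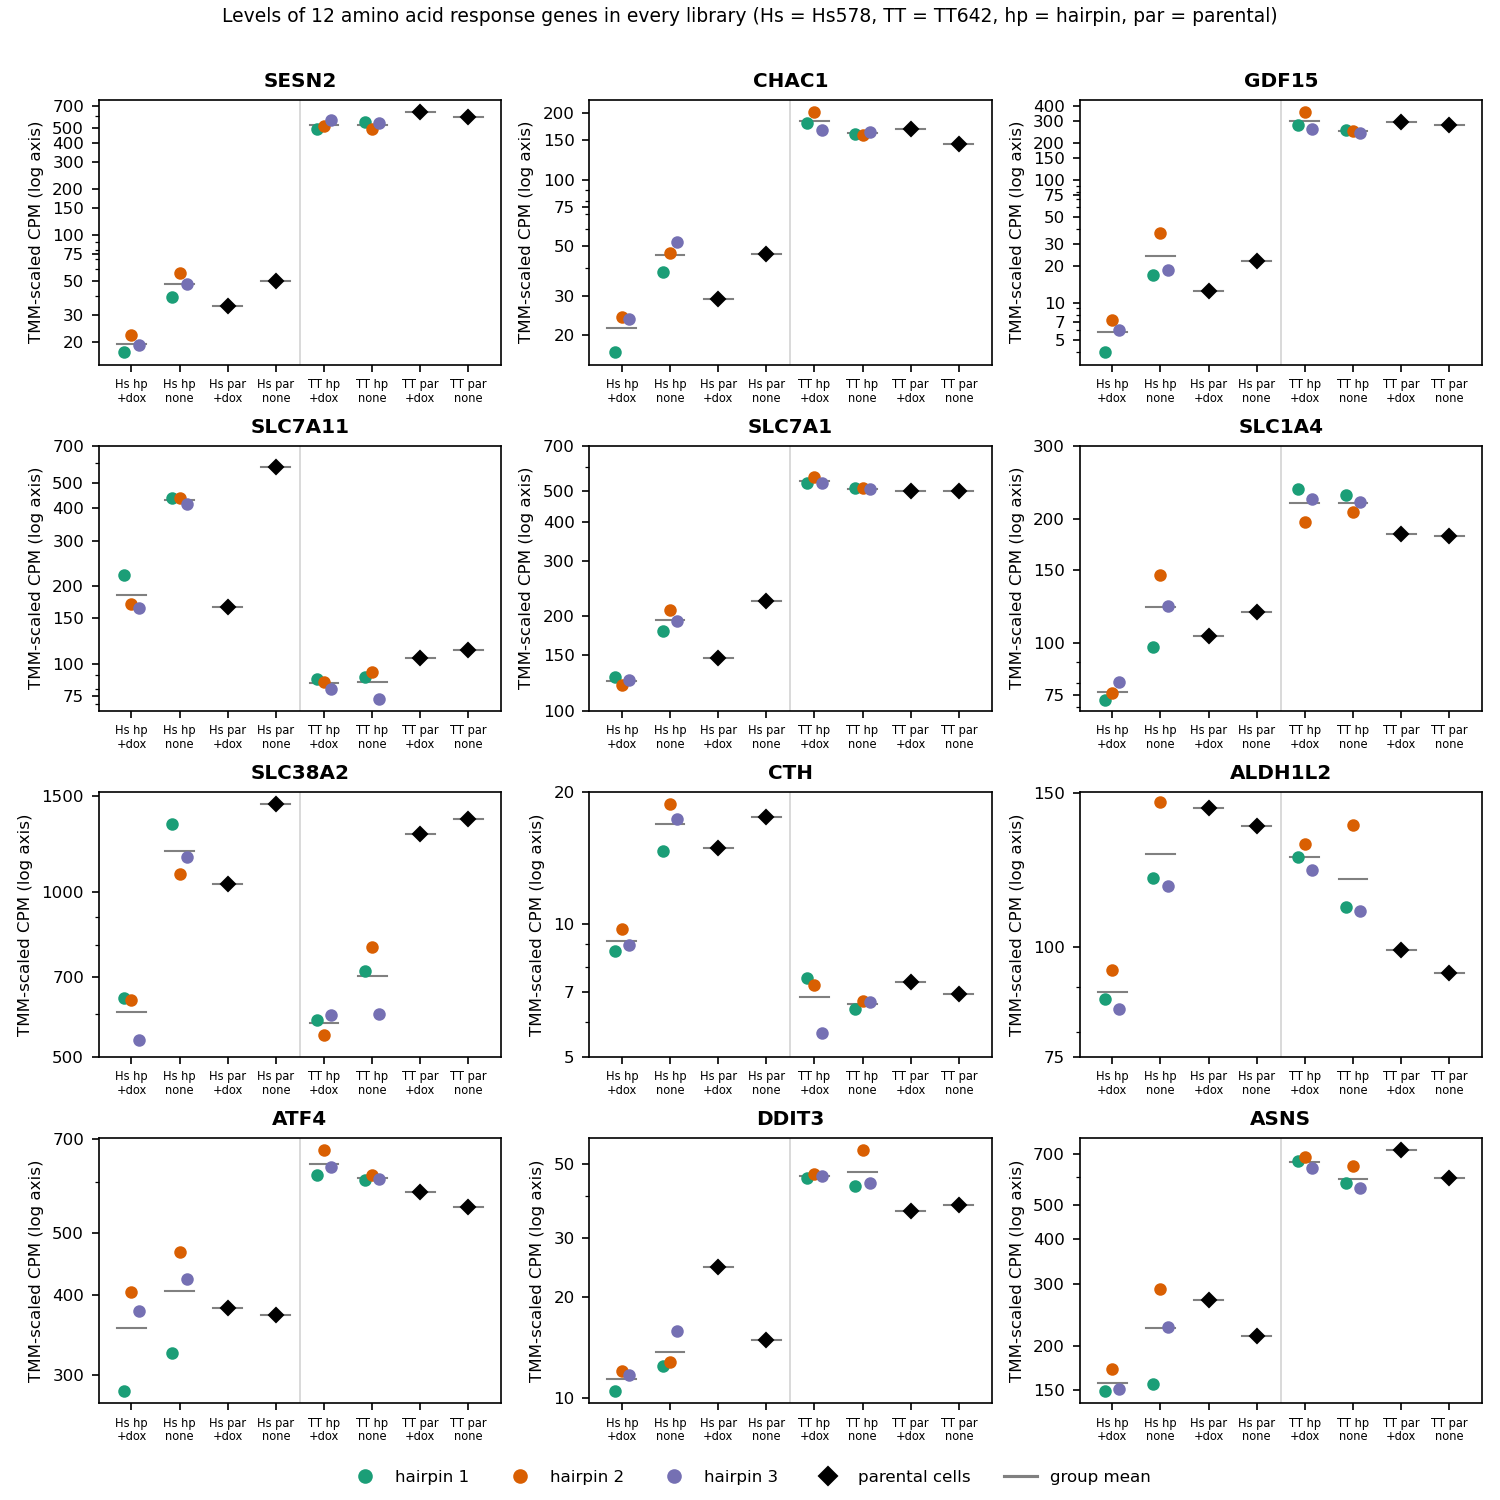
TMM-scaled CPM on a log axis of 12 of the 38 genes in each of the 16 libraries; colours mark hairpins 1 to 3, black diamonds parental cells and grey lines group means, with induced beside uninduced groups. SESN2 is at 17.1 to 22.4 CPM in the induced Hs578 lines and at 39.5 to 56.7 CPM in the uninduced ones, whereas ATF4 overlaps.

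Genes around the 38 gave a mixed picture in Hs578. Of 17 tested further ATF4 targets, 7 fell and 1 rose, with a median of -0.42. They included XPOT, which exports tRNA from the nucleus (log2 fold change -0.50), VEGFA, an angiogenic growth factor (-0.78), and SLC6A9, a glycine transporter (-0.52). ALDH18A1, an enzyme of proline synthesis, rose (0.31). Of 16 eIF2 kinases, phosphatase subunits and eIF2 or eIF2B subunits, 3 fell and 0 rose, with a median of -0.01. These were PPP1R15B (-0.57) and PPP1R15A (-0.72), which direct the eIF2 phosphatase, and GCN1L1 (-0.36), the activator of GCN2. The other 16 cytosolic synthetases and scaffold genes split, with 3 lower (IARS at -0.67, LARS at -0.39 and TARS at -0.45) and 4 higher (DARS, HARS, KARS and FARSA, at 0.27 to 0.38), with a median of -0.04. Of 17 mitochondrial synthetases, 2 fell, IARS2 (-0.36) and LARS2 (-0.28), and 3 rose, CARS2, EARS2 and AARS2, by 0.24 to 0.29, with a median of 0.01.

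Of 15 further folate and methyl cycle enzymes, 3 fell and 1 rose, with a median of -0.14. The methionine cycle gene MTR was at -0.31, while AHCY, which clears S-adenosylhomocysteine, rose by 0.27. Among 10 NRF2 targets, the glutathione and redox genes that share SLC7A11 with the ATF4 response, 4 fell and 0 rose, with a median of -0.31. TXNRD1, thioredoxin reductase, was at -0.64, and GCLM, a subunit of the enzyme that begins glutathione synthesis, at -0.47. Of 10 p53 targets, a class that also holds SESN2 and GDF15, 1 fell (MDM2, -0.44) and 1 rose (BAX, 0.51), with a median of -0.23. Of 10 chaperone and folding genes of the endoplasmic reticulum, 3 fell and 2 rose, with a median of -0.19, among them CRELD2 (0.61), SEL1L (-0.46) and HERPUD1 (-0.42). All of these calls are from the same edgeR fit, where 29.3% of all genes were called.

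Parental Hs578 cells were compared with and without doxycycline as 1 library against 1, which was not tested in that line alone. Of the 38, 22 had a negative log2 ratio, where 49.3% of all genes did, and the median was -0.18 over the 38 and 0 over all genes. The 3 hairpin pairs had medians of -0.25, -0.60 and -0.39, with 27, 35 and 34 of the 38 negative, where 51%, 49.2% and 48.2% of all genes were. Of the 21 genes called lower in the hairpin lines, 18 were negative in the parental pair, with a median of -0.33, and 20, 21 and 21 in the pairs of hairpins 1, 2 and 3, with medians of -0.39, -0.79 and -0.63. The parental ratio lay above all 3 hairpin ratios for 24 of the 38, a count that was not made over all genes. Of those 24, 9 were negative in all 3 hairpin pairs and positive in the parental pair: ATF4, DDIT3, CEBPB, CEBPG, SLC1A5, ALDH1L2, ASNS, AARS and WARS. The parental ratio lay below all 3 for 1 gene, SLC7A11 (-1.80, against -0.99, -1.37 and -1.33 in the hairpin pairs). The 21 were chosen by the hairpin pairs, so only the parental values are free of that choice.

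**Figure D3:**
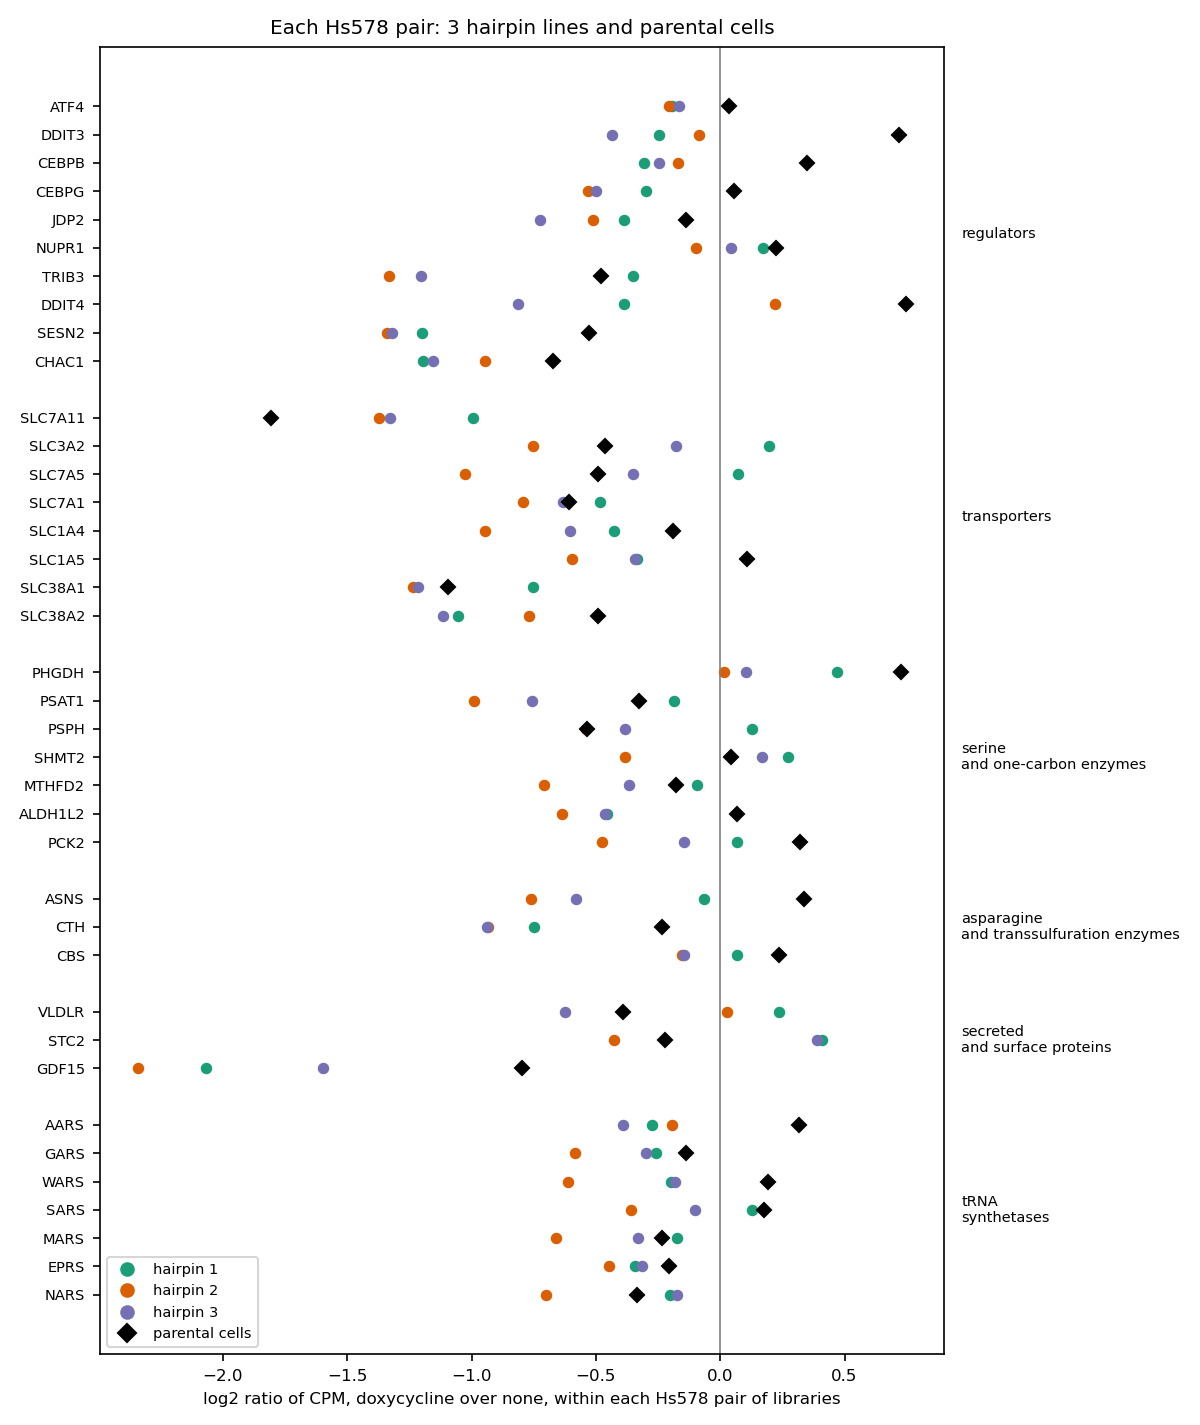
Log2 ratio of CPM with over without doxycycline (x axis) in each Hs578 pair of libraries for the 38 genes (rows, by role); coloured points are hairpins 1 to 3 and black diamonds parental cells. The SLC7A11 diamond is the lowest point of its row, at -1.80, and the DDIT3 diamond, at 0.72, is to the right of all 3 hairpin points.

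Taking the parental effect away from the hairpin effect left no gene of the 38 called in Hs578, where 0.406% of all genes were called. By edgeR 10 of the 38 had an unadjusted p under 0.05, 9 of them lower, DESeq2 called 3, where it called 2.79% of all genes, and limma on log2(FPKM + 1) called 0. The share of all genes at an unadjusted p under 0.05 was not computed. The net comparison and the others that use parental cells take their spread from the hairpin groups, and the single parental libraries are assumed to vary like them. The smallest adjusted p was that of DDIT3 (net log2 value -0.99, 95% interval -1.51 to -0.46, adjusted p = 0.0925, edgeR). SESN2 was at -0.77 (interval -1.31 to -0.23, adjusted p = 0.179, edgeR). ASNS was at -0.85 (interval -1.55 to -0.14, adjusted p = 0.256, edgeR). SLC7A11 was at 0.59 (interval 0.10 to 1.07, adjusted p = 0.247, edgeR), the opposite sign. PRRX1, the hairpins' own target, did not pass this comparison either (-2.32, adjusted p = 0.18, edgeR). The median net value was -0.38 over the 38 genes and 0.00 over all genes, and each value rests on 1 treated and 1 untreated parental library. DDIT4 was called without hairpin 2, and without its induced Hs578 library alone (net value -1.33, adjusted p = 0.0253).

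Doxycycline in parental cells, as the mean of both lines, gave 1 call among the 38, where 0.0143% of all genes were called. SLC7A11 was lower (log2 fold change -0.96, SE 0.14, adjusted p = 0.0479, edgeR), with 165 CPM with and 577 CPM without doxycycline in parental Hs578 cells. Parental TT642 cells had 105 CPM with and 113 CPM without doxycycline. The call was lost without hairpin 2 (adjusted p = 0.0749) or 3 (0.155). It was also lost without the uninduced Hs578 library of hairpin 1, 2 or 3, the induced Hs578 library of hairpin 2, the uninduced TT642 library of hairpin 1 or the induced TT642 library of hairpin 1 or 3, with adjusted p between 0.0503 and 0.113. In TT642 the net comparison called 0 of the 38 and 0% of all genes, with 0 of the 38 at an unadjusted p under 0.05 and 0 by DESeq2.

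None of the genes passed when the hairpins were induced in TT642. By edgeR 0 of the 38 were called, where 0.0285% of all genes did. The median was 0.04 with a range of -0.43 to 0.27, 1 gene had an unadjusted p under 0.05, and DESeq2 and limma called 0. That gene was SLC38A2 (log2 fold change -0.29, SE 0.12, adjusted p = 0.531, edgeR), with 585, 549 and 596 CPM in induced and 718, 795 and 599 CPM in uninduced lines. Its 3 induced libraries lay just below the uninduced ones, as was the case for 3 of the 38 and 6.31% of all genes. Another 6 of the 38 had all induced libraries above the uninduced ones, as had 8.54% of all genes. The 95% interval of the change lay within 0.5 either way for 28 of the 38. The largest bounds were -1.07 for SLC38A1 and 0.85 for GDF15.

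For SLC7A11 in TT642, the induced lines had 86.9, 85.1 and 79.5 CPM and the uninduced lines 88.5, 93.2 and 72.9 CPM, and parental cells had 105 CPM with and 113 CPM without doxycycline. The SLC7A11 groups overlapped. For SESN2, the induced lines had 495, 517 and 566 CPM and the uninduced lines 545, 497 and 537 CPM, while parental cells had 642 CPM with and 594 CPM without doxycycline. The SESN2 groups overlapped too, at a level far above that of Hs578. CHAC1 had 180.4, 202 and 168 CPM induced and 160.3, 159.5 and 164 CPM uninduced, and 169 CPM and 145 CPM in treated and untreated parental cells. All 3 induced CHAC1 libraries were a little higher, which did not pass (log2 fold change 0.19). SLC7A1 had 533, 555 and 532 CPM induced and 512, 511 and 509.8 CPM uninduced, and 501 CPM and 503 CPM in treated and untreated parental cells. GDF15 had 282, 360.4 and 259 CPM induced and 253, 252 and 240 CPM uninduced, and 297 CPM and 282 CPM in treated and untreated parental cells. Both SLC7A1 and GDF15 were higher in every induced library and did not pass (log2 fold changes 0.08 and 0.27). CTH had 7.54, 7.29 and 5.65 CPM induced and 6.41, 6.71 and 6.67 CPM uninduced, and 7.40 CPM and 6.93 CPM in treated and untreated parental cells, and its groups overlapped.

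The other genes with per-library values in Hs578 did not pass in TT642 either. ATF4 had 615, 672 and 632 CPM induced and 604, 616 and 606 CPM uninduced, DDIT3 45.2, 46.5 and 46.1 CPM induced and 42.9, 54.98 and 43.8 CPM uninduced. ASNS had 668, 683 and 636 CPM induced and 577, 644 and 558 CPM uninduced, and SLC3A2 619.5, 572 and 576 CPM induced and 573, 562 and 581 CPM uninduced. In these 4 genes the groups overlapped, and ASNS did not pass (log2 fold change 0.16, SE 0.16, adjusted p = 0.886, edgeR). SLC1A4 had 236, 196 and 223 CPM induced and 228, 208 and 219 CPM uninduced, and ALDH1L2 127, 131 and 123 CPM induced and 111, 138 and 110 CPM uninduced. Those 2 overlapped. CEBPG had 237, 258 and 228 CPM induced and 222, 252 and 221 CPM uninduced, and JDP2 110, 112 and 110.3 CPM induced and 109, 101 and 114 CPM uninduced. CEBPG and JDP2 overlapped as well. PSAT1, at 1252, 1282 and 1192 CPM induced and 1141, 1148 and 1199 CPM uninduced, was several times above its Hs578 level in both states. Treated and untreated parental TT642 cells had 578 and 549 CPM of ATF4, 36.1 and 37.7 CPM of DDIT3, and 717 and 596 CPM of ASNS.

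The difference between the lines was tested directly, as the Hs578 effect minus the TT642 effect. Both effects compare induced with uninduced hairpin lines, so each line's response to doxycycline remains in the difference. Of the 38, 12 differed, all lower in Hs578, where 5.24% of all genes differed, 2.48% in that direction and 2.76% in the other. The median difference was -0.41 over the 38 and 0.00 over all genes. SLC7A11 differed by -1.20 (SE 0.16, adjusted p = 0.004, edgeR) and SESN2 by -1.30 (SE 0.18, adjusted p = 0.004, edgeR). CHAC1 differed by -1.28 (adjusted p = 0.0061), SLC7A1 by -0.72 (0.00702), GDF15 by -2.36 (0.0235) and CTH by -0.93 (0.0262). Among the others were 2 transporters, SLC38A2 and SLC1A4, 2 enzymes, ALDH1L2 and PSAT1, and 2 regulators, CEBPG and JDP2, and none of the 7 tRNA synthetases was among the 12. Without hairpin 3 in both lines none of the 12 passed, where 0.0143% of all genes did, and their values ran from -2.64 (GDF15) to -0.49 (CEBPG). Without hairpin 1 there were 5 calls (0.878% of all genes) and without hairpin 2 there were 2 (0.273%). Single Hs578 libraries also moved the count, to 7 (3.4% of all genes) without uninduced hairpin 2, 5 (1.13%) without uninduced hairpin 3, 6 (1.38%) without induced hairpin 2 and 4 (1.23%) without induced hairpin 3. Single TT642 libraries did so too, to 4 (0.613% and 0.414% of all genes) without uninduced hairpin 1 or 3, 5 (1.41%) without induced hairpin 1 and 6 (1.69%) without induced hairpin 3. With the derived line as a block, where 12.6% of all genes were called, another 5 passed by edgeR: TRIB3 (-1.04, adjusted p = 0.0481), SLC1A5 (-0.56, 0.016), MTHFD2 (-0.60, 0.0213), ASNS (-0.63, 0.0254) and EPRS (-0.39, 0.0451). Of the further lists, 9 genes differed, all lower in Hs578. These were the synthetases IARS (-0.70) and TARS (-0.53), the ATF4 targets XPOT (-0.57), ATF3 (-3.05), SLC6A9 (-0.60) and ADM2 (-0.71), the eIF2 phosphatase subunit PPP1R15B (-0.63), and HERPUD1 (-0.57) and SEL1L (-0.55), which act in the disposal of misfolded proteins of the endoplasmic reticulum.

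Before induction the levels of most of the 38 genes were lower in Hs578 than in TT642. Of them, 36 differed between the uninduced hairpin lines of Hs578 and TT642, 8 higher and 28 lower in Hs578, where 80.8% of all genes differed, 41% higher and 39.7% lower in Hs578 (edgeR). The libraries of the lines did not overlap for 7 genes higher and 27 lower in Hs578, as was the case for 42.7% and 41.4% of all genes. The median log2 difference was -0.94 over the 38 and 0.01 over all genes. All 10 regulators were lower in Hs578. SESN2 had 39.5, 56.7 and 47.8 CPM in Hs578, against 545, 497 and 537 CPM in TT642 (log2 fold change -3.45, SE 0.13, adjusted p = 5.05e-12, edgeR). WARS, the tryptophan enzyme, had 172, 270.4 and 199 CPM in Hs578 and 2105, 2135 and 1996 CPM in TT642 (log2 fold change -3.28, SE 0.16, adjusted p = 1.2e-10, edgeR). GDF15 was lower by a like factor (log2 difference -3.36), and PCK2 (-2.39), DDIT4 (-2.21) and PSAT1 (-2.12) followed.

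The 8 genes higher in Hs578 were 4 transporters (SLC7A11, SLC38A1, SLC1A5 and SLC38A2), PHGDH, CTH, VLDLR and STC2. SLC7A11 had 438, 440.2 and 414 CPM in Hs578, against 88.5, 93.2 and 72.9 CPM in TT642 (log2 fold change 2.34, SE 0.12, adjusted p = 1.11e-10, edgeR), with no overlap. SLC38A1 (2.22), VLDLR (2.38) and STC2 (2.73) had log2 differences of that order. ALDH1L2 (0.10) and NARS (-0.10) did not pass the test. Of the 21 genes that fell on induction in Hs578, 15 were lower there than in TT642 before induction and 4 (SLC7A11, SLC38A1, SLC38A2 and CTH) higher. Over all 38 genes 28 were lower and 8 higher, and over all genes tested 39.7% were lower and 41% higher. Both comparisons use the uninduced Hs578 libraries.

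Between genes, levels can be set side by side only per transcript length, as in the authors' FPKM. In uninduced Hs578 lines SLC1A5 was first with 380 ± 108 FPKM, then ATF4 with 301 ± 55.1 FPKM and NARS with 250 ± 38.9 FPKM (SD, n = 3 each), which overlap in their spread. CTH was last with 7.78 ± 1.02 FPKM, next to VLDLR with 8.75 ± 0.886 FPKM. In uninduced TT642 lines WARS led with 1337 ± 38.8 FPKM, well above PSAT1 with 519 ± 16.7 FPKM and ATF4 with 494 ± 7.67 FPKM. VLDLR was last there with 2.03 ± 0.206 FPKM, below CTH with 3.63 ± 0.144 FPKM and SLC7A11 with 7.63 ± 0.943 FPKM. SLC7A11 ranked 24 of 38 in Hs578, with 34.9 ± 0.533 FPKM.

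**Figure D4:**
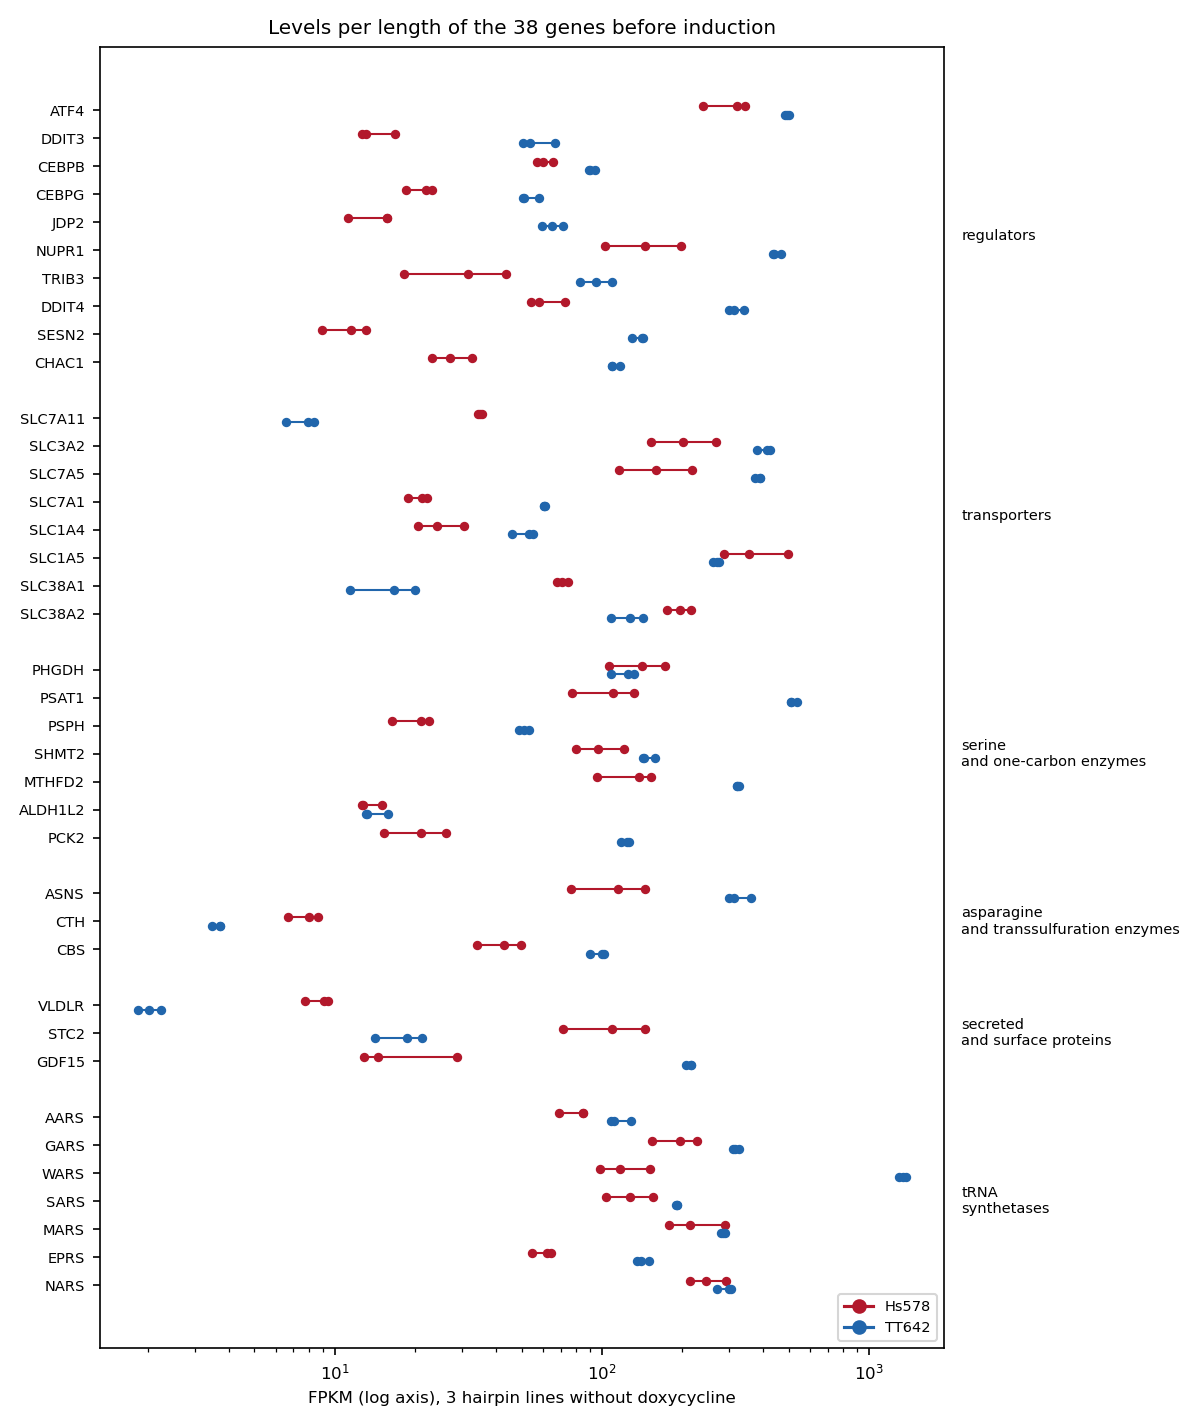
FPKM on a log axis of the 38 genes (rows, by role) in the 3 uninduced hairpin lines of Hs578 (red) and TT642 (blue); each point is a library and each line spans the range. Red lies left of blue for all 10 regulators, and right of it for SLC7A11, SLC38A1, CTH, VLDLR and STC2.

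Hairpin lines and parental cells without doxycycline were compared last, 3 libraries against 1. In Hs578, uninduced hairpin lines against the parental library gave 0 calls of the 38 and 0% of all genes by edgeR, with 1 of the 38 at an unadjusted p under 0.05 and 0 by DESeq2. In TT642 1 of the 38 was lower, where 0.919% of all genes were called and 0.762% were lower. This was SLC38A2, with 718, 795 and 599 CPM in the hairpin lines and 1363 CPM in the untreated parental library (log2 fold change -0.95, SE 0.16, adjusted p = 0.0069, edgeR). The treated parental library had 1278 CPM, so both parental libraries lay above all 6 hairpin libraries. Without hairpin 3 the adjusted p of SLC38A2 was 0.0587. SLC38A1 also had more in parental than in hairpin TT642 cells, with 166, 101 and 144 CPM in uninduced hairpin lines and 375 CPM in the untreated parental library, but did not pass (log2 fold change -1.45, SE 0.38, adjusted p = 0.155, edgeR).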

How the data were processed

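Per the labels' protocols, RNA was extracted with RNeasy columns and polyadenylated RNA from 500 ng was made into stranded TruSeq libraries. The authors deposited raw read counts per gene symbol (20114 genes) and FPKM values (20111 genes). Per the submitters' processing notes, the genome build is hg19. The sources used here name no aligner, counter, annotation or use of strand, so reads of overlapping or antisense genes may be shared. Overlaps are exon overlaps in the GENCODE annotation of GRCh38, whose coordinates were not applied to the counts.

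Counts of all 16 libraries were fitted with edgeR 4.0.16 in R 4.3.3 (TMM scaling, filterByExpr, robust quasi-likelihood, 1 mean for each of the 8 groups, 8 residual degrees of freedom), giving 14035 tested genes and 9 comparisons, with Benjamini-Hochberg adjustment over all tested genes and a threshold of 0.05. Tests were two-sided. CPM are TMM-scaled, pair ratios use a prior count of 2, and intervals are 95%. Alternatives used DESeq2 1.42.0, limma 3.58.1 on log2(FPKM + 1) and log2(FPKM + 0.1) with and without a mean FPKM filter of 0.5, other scaling and filtering, the line's own libraries, a block for the derived line, and leaving out hairpins or single libraries. Same-numbered hairpin libraries were taken to be 1 derived line, from their titles. The deviations of the pairs from their group means correlated at 0.44, 0.42 and 0.42 in TT642 and at 0.13, -0.03 and 0.00 in Hs578. In Hs578 induced hairpin 2 correlated more with uninduced hairpin 3 (0.05), and induced hairpin 3 more with uninduced hairpin 2 (0.11). The Hs578 values therefore do not bear out the pairing of hairpins 2 and 3. No 2 libraries of the same hairpin group were duplicates, and other pairs of libraries were not checked. Library totals of 13461527 or more leave low genes such as CTH and GDF15 in Hs578 with the widest counting error.

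The genes, the 8 further lists of 112 genes and the tests were chosen with earlier results of these data known. Per-library values were given for the 12 genes with the smallest adjusted p in Hs578 and for ATF4, DDIT3, ASNS, SLC3A2 and PRRX1; SLC7A5, SLC38A1, TRIB3, PHGDH, EPRS and WARS were added after their values were seen. At most 3 called genes of a further list were named, in order of p. ALDH18A1, AHCY, DARS, HARS, KARS, FARSA, EARS2, AARS2 and, in the difference between lines, ADM2 were named after their values were seen. The values of 1 gene of these lists are not reported here.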

Additional observations from a re-analysis of the deposited data

Results flagged for a closer look

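The change from uninduced to induced hairpin lines differed between Hs578 and TT642 for 12 of the 38 genes. This is by edgeR's test of the difference itself, with Benjamini-Hochberg adjustment over all genes tested. Parental cells are not part of this comparison, so each line's response to doxycycline remains in it. Of all genes, 5.24% differed. Without hairpin 3 in both lines none of the 12 passed, where 0.0143% of all genes did. Values are log2 fold changes, Hs578 minus TT642. Among regulators, SESN2 differed by -1.30 (-1.30 in Hs578 and -0.00 in TT642), CHAC1 differed by -1.28 (-1.10 in Hs578 and 0.19 in TT642), CEBPG differed by -0.50 (-0.45 in Hs578 and 0.06 in TT642) and JDP2 differed by -0.59 (-0.55 in Hs578 and 0.04 in TT642). Of the transporters, SLC7A11 differed by -1.20 (-1.22 in Hs578 and -0.02 in TT642), SLC7A1 differed by -0.72 (-0.64 in Hs578 and 0.08 in TT642), SLC38A2 differed by -0.69 (-0.98 in Hs578 and -0.29 in TT642) and SLC1A4 differed by -0.68 (-0.68 in Hs578 and 0.00 in TT642). Of the enzymes, CTH differed by -0.93 (-0.89 in Hs578 and 0.04 in TT642), ALDH1L2 differed by -0.61 (-0.53 in Hs578 and 0.08 in TT642) and PSAT1 differed by -0.77 (-0.68 in Hs578 and 0.10 in TT642). The widest gap was that of the secreted factor GDF15, at -2.36 (-2.08 in Hs578 and 0.27 in TT642). In every one of the 12 the difference was negative, and JDP2 was nearest to the threshold (adjusted p = 0.0499). The parental pair of SLC7A11, without a hairpin, was at -1.80 in Hs578 and -0.10 in TT642, in 1 library against 1. Of the others among the 12, CEBPG (0.05) and ALDH1L2 (0.07) were positive in the parental Hs578 pair. The rest were negative there, among them GDF15 (-0.80), CHAC1 (-0.67), SLC7A1 (-0.61) and SESN2 (-0.53). In the parental TT642 pair GDF15 was at 0.08, CHAC1 at 0.22, SLC7A1 at -0.01 and SESN2 at 0.11. The difference between the parental pairs was not tested.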

How the results depend on the processing

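Most counts moved with the scaling, filter, test or unit. The 21 genes lower on induction in Hs578 were 21 to 26 under the settings that kept all libraries, where 21.8% to 35.1% of all genes were called. They were 19 (30.6% of all genes) with the libraries of Hs578 alone, and 9 to 25 (6.02% to 34%) when a hairpin or a library was left out. In TT642 the count was 0 throughout. The difference between lines gave 11 to 17 calls with all libraries, where 3.86% to 12.6% of all genes were called. With 1 hairpin or library left out it gave 0 to 13, where 0.0143% to 14.9% of all genes were called. For Hs578 net of parental doxycycline, DESeq2 called 3, and leaving libraries out gave 0 to 1. Doxycycline in parental cells gave 0 calls with relative log expression scaling, without robust moderation and with limma on log2(FPKM + 1) or log2(FPKM + 0.1), 2 with DESeq2 and 0 to 1 with libraries left out. TT642 hairpin lines against parental cells gave 2 with DESeq2, 0 with limma on log2(FPKM + 0.1), and 0 to 2 with libraries left out. The cause of these shifts was not tested. With the replicate block, which pairs the libraries of a derived line, 24 genes were called on induction in Hs578, 20 of the 21 among them. In the difference between lines it called 17, all 12 among them. Of all genes it called 34.6% on induction in Hs578 and 12.6% in the difference between lines. The blocked values stand beside the genes whose call the block changed, and it changed no other call of the 38 genes. No blocked value exists for the comparisons of levels without doxycycline, between lines or of hairpin lines against parental cells.

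No called gene changed sign on induction in Hs578 in any setting, but 7 uncalled genes did. NUPR1 (0.02) was at -0.018 with relative log expression scaling and with DESeq2, at -0.11 in all 3 limma settings, and between -0.18 and 0.27 with libraries left out. SHMT2 (-0.00) was at 0.019 with the replicate block and between -0.13 and 0.21 with libraries left out. STC2 (0.09) was at -0.24 in all 3 limma settings and between -0.10 and 0.39 with libraries left out. With libraries left out, PCK2 ran from -0.42 to 0.019, CBS from -0.21 to 0.050, VLDLR from -0.27 to 0.12 and SARS from -0.25 to 0.030. The median of all genes in Hs578 was at -0.10 with log2(FPKM + 1) and -0.13 with log2(FPKM + 0.1), and at -0.02 with log2(FPKM + 1) without a filter.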
